A study of Mus musculus with 8 samples.

Results

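Protein phosphatase 1, abbreviated PP1, is one of the main serine/threonine phosphatases of neurons. The genes described here are its catalytic subunits, *Ppp1ca*, *Ppp1cb* and *Ppp1cc*, and 7 genes of 2 families of small inhibitor proteins, namely *Ppp1r1a*, *Ppp1r1b* and *Ppp1r1c* of the inhibitor-1 family and *Ppp1r14a*, *Ppp1r14b*, *Ppp1r14c* and *Ppp1r14d* of the PPP1R14 family. They were taken by symbol and are 10 of the 48709 genes in the count files. They were chosen with the values of this comparison known, *Ppp1r14c* and *Ppp1r1a* because they were lower in the mutant. The differences of the 10 genes are therefore given as a description, and no test is read from them.

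RNA of the cortex of newborn mice at postnatal day 1 was sequenced in 4 control and 4 dcKO_Nex-Cre libraries. The mutant carried floxed alleles of both BAF155 (*Smarcc1*) and BAF170 (*Smarcc2*), core subunits of the BAF chromatin remodeling complex, together with the Nex-Cre allele. Nex-Cre is active in postmitotic projection neurons, so that glia and interneurons of the tissue keep both genes. Control animals were heterozygous for the floxed alleles (BAF155fl/+, BAF170fl/+) and Cre negative, so that the Cre allele itself was present in the mutant only, and all mice were of the C57BL6/J background. The genotypes and the name of the Cre line come from the study's methods, whereas the labels name control and mutant samples only. Whether the libraries of a group came from separate animals is not stated, so the p-values below measure the spread between these libraries, which may be technical.

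PP1 removes phosphate from a wide range of proteins at the synapse, in the cytoskeleton and in the nucleus, and its catalytic subunits gain their specificity from regulatory proteins that bind them. Inhibitor-1 (*Ppp1r1a*) and DARPP-32 (*Ppp1r1b*) block PP1 once protein kinase A (PKA) has phosphorylated a threonine near their start, which allows cyclic AMP to slow the removal of phosphate from other PKA targets. DARPP-32 is best known from the medium spiny neurons of the striatum, where it stands downstream of dopamine, and it is also made in a subset of cortical neurons. The PPP1R14 proteins CPI-17 (*Ppp1r14a*), PHI-1 (*Ppp1r14b*) and KEPI (*Ppp1r14c*) block PP1 once protein kinase C or related kinases have phosphorylated a threonine in their shared domain. CPI-17 is best known from smooth muscle, and KEPI from brain.

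The coding sequences around these control points are printed because they are what sets the 2 families apart. They were read from the GENCODE M21 transcripts on GRCm38. The first 3 run from the start codon to just past the threonine codon, and the capitals mark the codons of the PP1 docking motif and then the threonine codon.
*Ppp1r1a*: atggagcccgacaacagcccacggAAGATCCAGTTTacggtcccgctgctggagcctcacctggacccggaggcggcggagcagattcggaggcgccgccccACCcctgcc
*Ppp1r1b*: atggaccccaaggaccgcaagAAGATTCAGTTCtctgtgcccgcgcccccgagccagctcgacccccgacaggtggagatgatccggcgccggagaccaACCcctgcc
*Ppp1r1c*: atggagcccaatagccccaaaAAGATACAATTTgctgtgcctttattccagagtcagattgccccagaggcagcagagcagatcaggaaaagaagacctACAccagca
The docking motif filled codons 9 to 12 in *Ppp1r1a* and codons 8 to 11 in *Ppp1r1b* and *Ppp1r1c*, and the threonine was codon 35 in *Ppp1r1a* and codon 34 in the other two, counted from the start codon. Over the 87 bases from the docking motif to the threonine codon, *Ppp1r1a* and *Ppp1r1b* were identical at 62.1% of bases, *Ppp1r1a* and *Ppp1r1c* at 63.2%, and *Ppp1r1b* and *Ppp1r1c* at 58.6%.

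The 4 genes of the PPP1R14 family share the window below, in which the capitals mark the threonine codon.
*Ppp1r14a*: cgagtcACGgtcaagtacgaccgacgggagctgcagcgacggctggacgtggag
*Ppp1r14b*: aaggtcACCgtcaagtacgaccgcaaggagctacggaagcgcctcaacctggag
*Ppp1r14c*: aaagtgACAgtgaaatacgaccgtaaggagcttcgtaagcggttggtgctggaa
*Ppp1r14d*: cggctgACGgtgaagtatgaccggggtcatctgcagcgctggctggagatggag
The threonine was codon 38 in *Ppp1r14a*, 57 in *Ppp1r14b*, 72 in *Ppp1r14c* and 59 in *Ppp1r14d*. Over these 54 bases, *Ppp1r14a* and *Ppp1r14d* were identical at 74.1% and *Ppp1r14b* and *Ppp1r14c* at 72.2% of bases, while *Ppp1r14d* shared 55.6% with each of *Ppp1r14b* and *Ppp1r14c*. The coding sequences of the 3 catalytic subunits were 74.5% to 77.5% identical.

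The authors deposited raw counts per gene, and total counts ranged from 17958641 to 35191912 per library. Values per library are given as CPM, the counts scaled to a common library size after TMM normalization, in the order of replicates 1 to 4. EdgeR's quasi-likelihood test was run over 16287 genes. *Smarcc2* was at 462 ± 25.8 CPM (SD, n = 4) in control and 263 ± 26.0 CPM (SD, n = 4) in mutant libraries (log2 fold change -0.81, SE 0.09, edgeR adjusted p = 0.00267). *Smarcc1* was at 148 ± 11.6 CPM (SD, n = 4) and 102 ± 13.7 CPM (SD, n = 4) (log2 fold change -0.53, SE 0.10, edgeR adjusted p = 0.0348). Both targeted genes were thus lower in the libraries labelled mutant, although *Smarcc1* was past the threshold of 0.05 in only 2 of the 8 fits that each left out 1 library. For either gene the 4 mutant libraries lay below the 4 controls, at p = 0.0286 in an exact permutation test, two-sided, which is the smallest p of such a design. Lane tag 2 stood in the file names of every control library and of mutant replicates 1 and 2, and lane tag 8, which holds no control, in those of mutant replicates 3 and 4. *Neurod6*, a defining gene of cortical projection neurons, was at 327 CPM or more in every library, with 645 ± 84.4 CPM (SD, n = 4) in control and 387 ± 48.0 CPM (SD, n = 4) in mutant libraries (log2 fold change -0.74, edgeR adjusted p = 0.0192). Nex is another name of *Neurod6*, and the Nex-Cre allele, which the mutant alone carries, is a knock-in at this gene, so that the loss of a copy and fewer or changed projection neurons cannot be told apart in its level.

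Of the 10 genes, 8 passed the filter on low counts. *Ppp1r14c* and *Ppp1r1a* were lower and *Ppp1r1b* was higher in the dcKO_Nex-Cre cortex at an adjusted p under 0.05, beside 0.51% of all tested genes called lower and 0.375% called higher. Every mutant library lay below every control library for 3 of the genes and above for 1, beside 4.01% and 3.99% of all tested genes. Because these genes were chosen from this contrast, nothing is read from these counts. In whole tissue, fewer cells of a type and less RNA per cell cannot be told apart. The 3 catalytic subunits and *Ppp1r14b* overlapped between the groups.

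*Ppp1r1a* (ENSMUSG00000022490, chr15:103530279-103538003, minus strand, GRCm38), the gene of inhibitor-1, was at 95.2, 97.15, 95.47 and 96.78 CPM in the 4 control libraries. The mutant libraries had 59.42, 55.15, 65.74 and 75.27 CPM. The controls thus lay within 2 CPM of each other, and all mutant libraries lay below them with a wider spread, replicate 4 being the nearest. The means were 96.2 ± 0.96 CPM (SD, n = 4) and 63.9 ± 8.74 CPM (SD, n = 4), so that 66.5% of the control level remained, and the log2 fold change was -0.59 (SE 0.09). It ranged from -0.67 to -0.52 over the 8 fits with 1 library left out, and was -0.74 within lane tag 2, and its adjusted p from edgeR was under 0.05 in 3 of the 8 fits. None of its 50-base stretches occurred in the transcripts of another gene.

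*Ppp1r1b* (ENSMUSG00000061718, chr11:98348404-98357796, plus strand), the gene of DARPP-32, went the other way. Its control libraries had 28.99, 30.71, 28.54 and 33.52 CPM. The mutant libraries had 52.09, 88.34, 46.05 and 49.45 CPM, and replicate 2 stood far above the other 3. Even the lowest mutant library exceeded the highest control library. On average the level was 30.4 ± 2.26 CPM (SD, n = 4) in control and 59.0 ± 19.7 CPM (SD, n = 4) in mutant libraries, which is 194% of the control, and the log2 fold change was 0.96 (SE 0.18). Without dcKO_Nex-Cre replicate 2 the log2 fold change was 0.70, and within lane tag 2, where replicate 2 is 1 of 2 mutant libraries, it was 1.21. Its adjusted p was under 0.05 in 2 of the 8 fits with 1 library left out, and above it with limma-voom (0.0547), with no filter on low counts (0.133) and with the replicate number as a block (0.0539).

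Since DARPP-32 is abundant in striatal neurons, the summed CPM of 21 striatal projection neuron markers was set beside *Ppp1r1b*. The sum was 430 to 599 CPM in the control libraries, 859 CPM in dcKO_Nex-Cre replicate 2 and 348 to 498 CPM in the other 3 mutant libraries. In replicate 2, 18 of the 21 markers had their highest value of all 8 libraries, with a median ratio of 3.77 to the mean of the other mutant libraries. The defining markers were above 0 in every library, and in replicate 2 *Drd2*, the D2 dopamine receptor, was at 12.4 CPM, *Adora2a*, an adenosine receptor, at 27.9 CPM and *Isl1*, a transcription factor of striatal neurons, at 35.3 CPM. With all 8 libraries, 15 of the 20 tested markers were higher and 5 lower than in the control. Their median log2 fold change was 0.20, and none was called by edgeR. Without replicate 2, 18 of them were lower and 2 higher, with a median log2 fold change of -0.42, and again none was called. *Ppp1r1b* was higher in all 3 remaining mutant libraries than in any control library. No striatal marker was above all control libraries in all 3 of these mutant libraries. Control replicate 2, which had the highest sum of the controls, had a *Ppp1r1b* level of 30.71 CPM, within the range of the other control libraries. The part of striatal RNA in the *Ppp1r1b* level of replicate 2 or of the other mutant libraries was not tested.

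**Figure D1:**
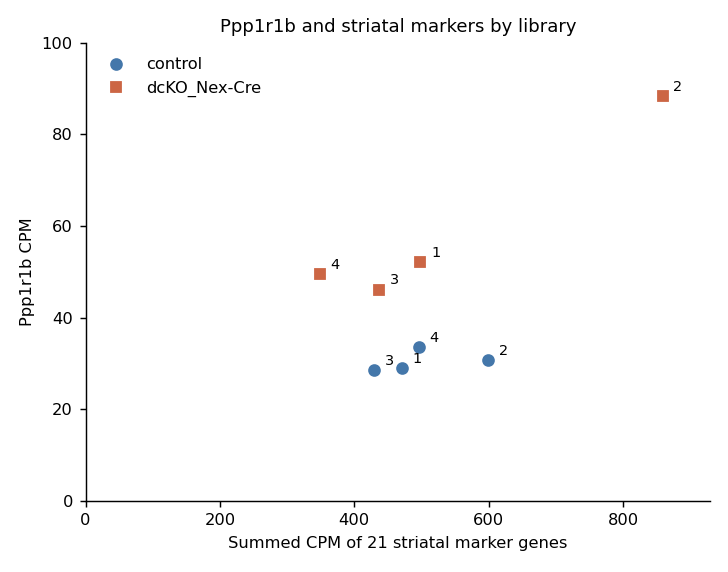
CPM of *Ppp1r1b* (vertical axis) against the summed CPM of 21 striatal marker genes (horizontal axis) in the 4 control libraries (circles) and the 4 dcKO_Nex-Cre libraries (squares), numbered by replicate. Mutant replicate 2 stands apart on both axes at 859 and 88.34 CPM, and the other 3 mutant libraries lie at 46.05 to 52.09 CPM of *Ppp1r1b* with marker sums of 348 to 498 CPM, above the controls at 28.54 to 33.52 CPM.

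*Ppp1r1c* (ENSMUSG00000034683, chr2:79707780-79818496, plus strand), the third gene of the family, encodes IPP5. It had 9 counts in all, with 0, 2, 2 and 4 counts in the control and 1, 0, 0 and 0 counts in the mutant libraries. It did not pass the filter, and no difference was detectable at this depth.

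In the PPP1R14 family, *Ppp1r14c* (ENSMUSG00000040653, chr10:3366057-3464975, plus strand), the gene of KEPI, was at 84.9, 77.23, 77.48 and 95.02 CPM in the control. In the mutant it was at 51.94, 47.91, 51.01 and 60.39 CPM. The groups were well apart, since the highest mutant library had less than the lowest control library. The means differed by more than the spread of either group, with 83.7 ± 8.37 CPM (SD, n = 4) against 52.8 ± 5.34 CPM (SD, n = 4), or 63.1% of the control level, and the log2 fold change was -0.67 (SE 0.10). It ranged from -0.73 to -0.60 with 1 library left out, with an adjusted p from edgeR under 0.05 in 5 of these 8 fits, and was -0.74 within lane tag 2. The lincRNA *Gm26752* overlaps 765 exon bases of *Ppp1r14c* on the opposite strand, and 27.5% of the 50-base stretches of *Ppp1r14c* occurred there, but *Gm26752* had 1.9 counts per library on average against 1579.1 for *Ppp1r14c*.

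*Ppp1r14b* (ENSMUSG00000056612, chr19:6974968-6977324, plus strand), the gene of PHI-1, shares more of the threonine window with *Ppp1r14c* than with *Ppp1r14a* or *Ppp1r14d*. Its level was 60.36, 60.48, 58.29 and 54.49 CPM in the control and 54.9, 57.95, 56.16 and 67.24 CPM in the mutant. The groups overlapped, and the log2 fold change was 0.02 (SE 0.08). Of its 50-base stretches, 21.7% also occurred in the pseudogene *Gm7332*, which had 2.2 counts per library on average.

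*Ppp1r14a* (ENSMUSG00000037166, chr7:29289308-29293801, plus strand), the gene of CPI-17, was scarce, with 10 to 20 counts per library. The control libraries had 0.687, 0.766, 0.835 and 0.793 CPM and the mutant libraries 0.435, 0.613, 0.660 and 0.561 CPM. All mutant libraries lay below the controls, but the log2 fold change of -0.45 came with an SE of 0.25 and the gene was not called. CPI-17 is best known from smooth muscle. The summed CPM of 10 markers of mural and smooth muscle cells was 180 to 244 in the control and 183 to 199 in the mutant. Of 9 tested markers, 0 were called by edgeR (1 at an unadjusted p under 0.05). The largest was *Rgs5*, at 134 ± 16.8 CPM (SD, n = 4) in control and 101 ± 11.9 CPM (SD, n = 4) in mutant libraries. *Acta2*, *Tagln*, *Myh11*, *Cnn1* and *Des* were each at 3.83 CPM or less in every library, with overlapping groups, so the sum holds little of them. The part of these cells in the level of *Ppp1r14a* was not tested. *Ppp1r14d* (ENSMUSG00000027317, chr2:119218119-119229906, minus strand) had 0 counts in all 8 libraries, which allows a level of up to 0.0158 CPM over all libraries (3 counts of 189638371) and of 0.0853 to 0.167 CPM in a single library, both of unscaled library sizes and for counting error only.

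**Figure D2:**
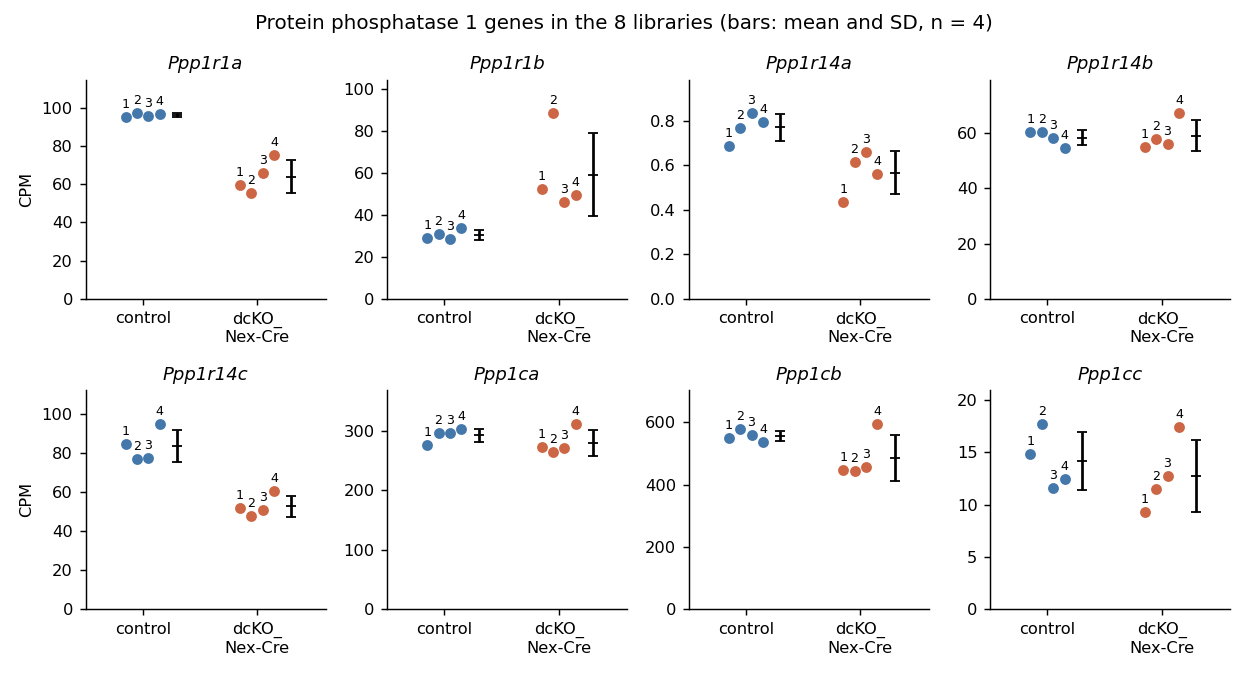
CPM (vertical axes, each starting at 0) of the 8 tested genes in the 4 control and the 4 dcKO_Nex-Cre libraries, 1 point per library with its replicate number, and the mean with SD (n = 4) beside each group. *Ppp1r1a* and *Ppp1r14c* are lower in every mutant library, *Ppp1r1b* is higher in every mutant library with replicate 2 at 88.34 CPM, and replicate 4 of the mutant, at 595 CPM, is the highest of all 8 libraries for *Ppp1cb*.

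Among the catalytic subunits no gene was called with all libraries. *Ppp1ca* (ENSMUSG00000040385, chr19:4192065-4195420, plus strand), the alpha catalytic subunit, was at 293 ± 11.1 CPM (SD, n = 4) in control and 280 ± 21.7 CPM (SD, n = 4) in mutant libraries, with overlapping groups and a log2 fold change of -0.07 (SE 0.08). *Rad9a* overlaps 225 of its exon bases on the opposite strand, with 286 counts per library on average against 6727.5.

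*Ppp1cb* (ENSMUSG00000014956, chr5:32458843-32517433, plus strand), the beta catalytic subunit, had 550.2, 578.2, 558.5 and 537 CPM in the control. The mutant libraries had 446, 444.4, 455.1 and 595 CPM. Mutant replicates 1 to 3 were below the controls, and replicate 4 was the highest of all 8 libraries. The log2 fold change was -0.20 (SE 0.10), and without dcKO_Nex-Cre replicate 4 it was -0.31, at an edgeR adjusted p of 0.0281. Replicate 4 also had the smallest library, with 17958641 counts, and 6.15% of its counts came from mitochondrial genes, beside 2.33% to 3.47% in the other mutant libraries. Control replicate 2, with 18737230 counts, had the highest mitochondrial share of all 8 libraries, 6.87%. The part of library size and mitochondrial share in the *Ppp1cb* level of mutant replicate 4 was not tested. On the same strand, *Gm43312* overlaps 1908 of the 10913 exon bases of *Ppp1cb* and holds 16.4% of its 50-base stretches. *Gm43312* had 0.0 counts per library on average, and how reads of such stretches were counted is not stated.

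*Ppp1cc* (ENSMUSG00000004455, chr5:122158278-122175273, plus strand), the gamma catalytic subunit, was at 14.1 ± 2.77 CPM (SD, n = 4) in control and 12.8 ± 3.44 CPM (SD, n = 4) in mutant libraries, and the groups overlapped (log2 fold change -0.15, SE 0.19). Its level is uncertain, since 39.99% of its 50-base stretches occurred in other genes and 38.9% in the pseudogene *Ppp1ccb*, and how reads of such stretches were counted is not stated.

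**Figure D3:**
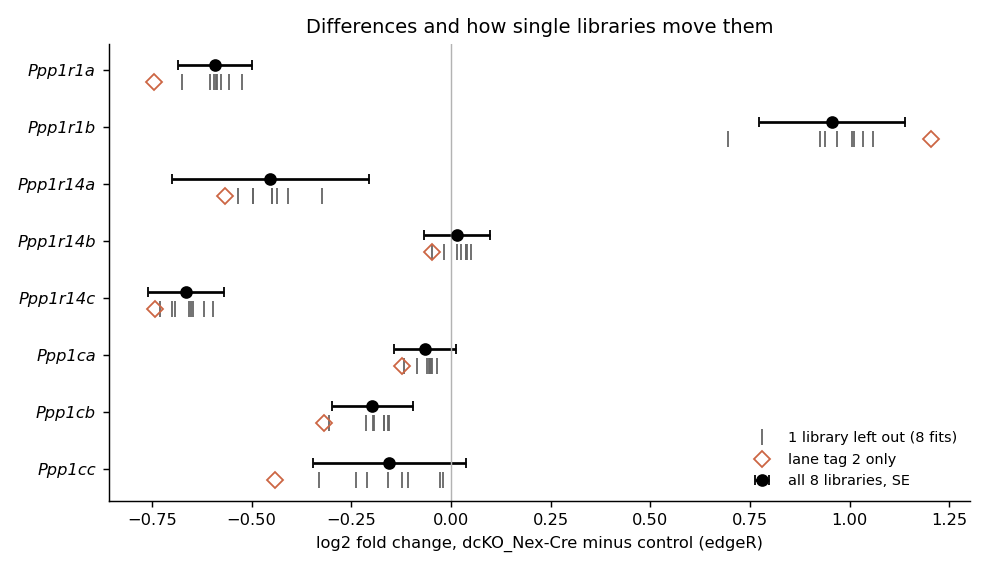
Log2 fold change of the 8 tested genes, dcKO_Nex-Cre minus control, from edgeR (horizontal axis), with all 8 libraries (filled points with SE), with 1 library left out (8 ticks per gene) and within lane tag 2 (open diamonds). *Ppp1r1a* and *Ppp1r14c* stay between -0.74 and -0.52 throughout, *Ppp1r1b* moves from 0.96 to 0.70 without mutant replicate 2 and to 1.21 within lane tag 2, and *Ppp1r14b* lies on both sides of 0.

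Levels of different genes were compared per length, as FPKM over the union of the exons of each gene. In the control the order was *Ppp1ca* at 116 FPKM, *Ppp1r1a* at 73.6 FPKM, *Ppp1cb* at 51.0 FPKM, *Ppp1r14b* at 38.3 FPKM, *Ppp1r14c* at 32.0 FPKM, *Ppp1r1b* at 10.4 FPKM, *Ppp1cc* at 4.13 FPKM and *Ppp1r14a* at 0.563 FPKM. The ranges of *Ppp1r14b* and *Ppp1r14c* overlapped, so that these neighbours did not differ beyond their spread, while the other neighbours among these 8 genes did not overlap. Among the 7 inhibitor genes the control level of *Ppp1r1a* was thus the highest, and each control library had less of *Ppp1r1b* than of *Ppp1r1a*, *Ppp1r14b* and *Ppp1r14c*.

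In the mutant the order of the means over the union of exons was the same, but the ranges closed up. *Ppp1r1a* at 48.9 FPKM, *Ppp1cb* at 44.5 FPKM and *Ppp1r14b* at 38.7 FPKM each overlapped with the next, and so did *Ppp1r14c* at 20.2 FPKM and *Ppp1r1b* at 20.1 FPKM. When the length of the longest transcript was used instead, *Ppp1cb* at 93.3 FPKM came before *Ppp1r1a* at 73.6 FPKM in the control. In the mutant, *Ppp1cb* at 81.4 FPKM and *Ppp1r14b* at 59.1 FPKM then came before *Ppp1r1a* at 48.9 FPKM, and *Ppp1r1b* at 29.5 FPKM before *Ppp1r14c* at 20.2 FPKM, while *Ppp1r14b*, *Ppp1r1a*, *Ppp1r1b* and *Ppp1r14c* each overlapped with the next in range. The order of these 5 genes thus depends on the length that is taken.

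**Figure D4:**
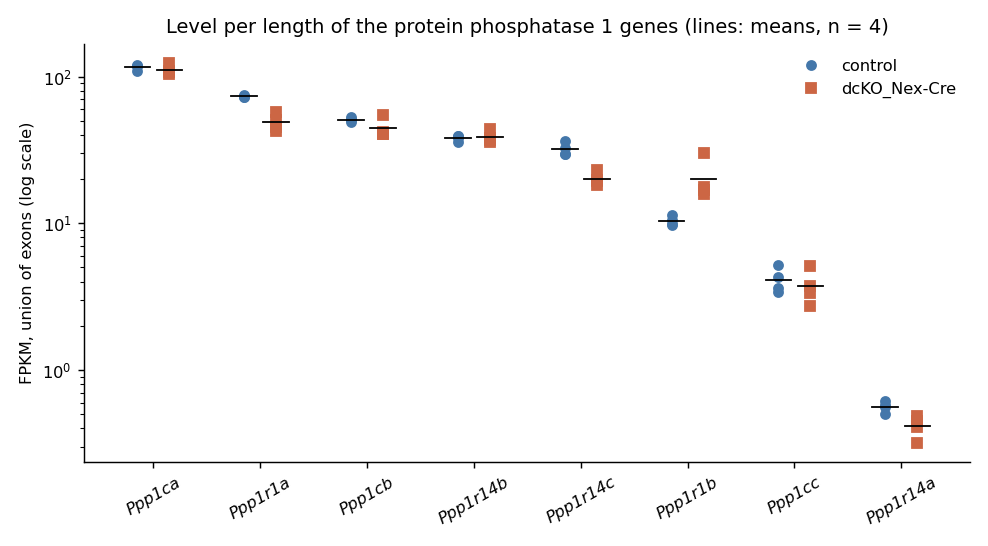
Level per length of the 8 tested genes in FPKM over the union of exons (vertical axis, log scale), for 4 control (circles) and 4 dcKO_Nex-Cre libraries (squares), with lines at the means. The genes are ordered by their control mean, from *Ppp1ca* at 116 FPKM to *Ppp1r14a* at 0.563 FPKM, and in the mutant *Ppp1r1b* at 20.1 FPKM reaches the level of *Ppp1r14c* at 20.2 FPKM.

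Within the inhibitor-1 family, *Ppp1r1b* made up 12.4% of the summed FPKM in the control and 29.1% in the mutant, with 22.7% to 41.7% in single mutant libraries. The family as a whole summed to 84.0 ± 1.42 FPKM (SD, n = 4) in the control and 69.1 ± 5.27 FPKM (SD, n = 4) in the mutant, and the ranges did not overlap. Of these sums *Ppp1r1a*, which was chosen because it was lower in the mutant, made up 73.6 and 48.9 FPKM. In the PPP1R14 family the share of *Ppp1r14c* was 45.1% in the control and 34.0% in the mutant, and the sum was 70.8 ± 2.08 and 59.3 ± 5.51 FPKM (SD, n = 4 each). The 7 inhibitors together came to 155 ± 2.84 FPKM (SD, n = 4) in the control and 128 ± 9.98 FPKM (SD, n = 4) in the mutant, beside 171 ± 4.69 and 159 ± 16.2 FPKM (SD, n = 4 each) for the 3 catalytic subunits, whose groups overlapped. The inhibitor sums hold *Ppp1r1a* and *Ppp1r14c*, both chosen for being lower, so nothing is read from their difference. These sums and shares depend on the length. With the longest transcript as the length, the PPP1R14 sums of the groups overlapped, since mutant replicate 4 had 91.0 FPKM beside 88.8 to 93.6 FPKM in the control. The 7 inhibitors then came to 180 FPKM in the control and 158 FPKM in the mutant, beside 298 and 276 FPKM for the catalytic subunits. The share of *Ppp1r1b* was then 17.1% in the control and 37.2% in the mutant, and that of *Ppp1r14c* 35.0% and 25.3%.

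The genes whose log2 CPM was most like that of each of the 3 genes that were called were sought among 11735 tested genes with a mean of at least 5 CPM. The Pearson correlations are over 8 libraries, which share their group difference, library size and tissue makeup, and are a description only. For *Ppp1r14c* these were *A830018L16Rik* (r = 0.990), *Lrrc73* (r = 0.989) and *Snap25* (r = 0.987), which encodes a SNARE protein of synaptic vesicle release. For *Ppp1r1a* they were *Cav2* (r = 0.983), a caveolin gene, *Slc25a4* (r = 0.982), the mitochondrial ADP/ATP carrier, and *Coq10b* (r = 0.980). All mutant libraries lay below all controls for each of these 6 genes, beside 4.01% of all genes tested. Nothing is read from this, since the 6 were picked for their likeness to genes whose groups were apart. *A830018L16Rik* had 25.4 ± 2.26 CPM (SD, n = 4) in the mutant beside 41.3 ± 3.37 CPM (SD, n = 4) in the control, or 61.5%, where *Ppp1r14c* had 63.1%. For *Ppp1r1b* they were *Svil* (r = 0.978), the gene of supervillin, *Maml3* (r = 0.960), a Notch coactivator, and *Cdh8* (r = 0.929), a cadherin. All had every mutant library above the controls, beside 3.99% of all genes tested, and their highest level in mutant replicate 2, as for *Ppp1r1b*. They were picked by the same likeness.

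The genes around PP1 were then counted in lists. The first list held 37 other PP1 regulators, some of which direct the phosphatase to glycogen, myosin, actin or the nucleus. Of these 37, 35 were tested and 0 were called in either direction by edgeR, beside 0.884% of all genes. At an unadjusted p under 0.05, 3 were lower and 1 was higher, beside 7.05% and 6.59% of all genes tested. Limma-voom called 0, and DESeq2 called 1 lower, *Ppp1r3e*, beside 1.78% of the genes it gave an adjusted p. Their median log2 fold change was -0.0042, beside 0.0043 over all genes tested. The smallest p values were those of *Ppp1r3e*, a glycogen-targeting subunit (log2 fold change -0.48, edgeR adjusted p = 0.0984), *Ppp1r16b*, a membrane-associated subunit (-0.26, 0.225), and *Ppp1r9a*, the actin-binding neurabin (0.24, 0.321). *Ppp1r9a* was at 181.6, 182, 180.8 and 135 CPM in the mutant and at 136.9 to 154.1 CPM in the control, so that replicate 4 alone lay below the controls. Without dcKO_Nex-Cre replicate 4, edgeR called *Ppp1r3e* and *Ppp1r35* lower and *Ppp1r9a* and *Ppp1r12b* higher, in a fit that called 3.74% of all genes lower and 3.98% higher.

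The kinases and phosphatases that switch the inhibitors on and off were counted likewise. Among the 17 genes of cyclic AMP and PKA signaling, 0 were called by edgeR, DESeq2 or limma-voom, and 2 were lower and 0 higher at an unadjusted p under 0.05, beside the same 7.05% and 6.59%, with a median log2 fold change of -0.029. *Pkib*, an inhibitor of PKA, was the gene of the smallest p (log2 fold change -0.64, edgeR adjusted p = 0.218), followed by *Adcy1*, a calcium-stimulated adenylyl cyclase (-0.24, 0.307), and *Prkacb*, a catalytic subunit of PKA (0.18, 0.451). Without dcKO_Nex-Cre replicate 4, *Pkib* was called lower, beside 3.74% of all genes.

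Of 15 kinases of the PKC and ROCK group, which act on the PPP1R14 proteins, 14 were tested. At an unadjusted p under 0.05, 2 were lower and 0 higher, beside 7.05% and 6.59% of all genes tested. EdgeR called 1 lower at an adjusted p under 0.05, beside 0.51% of all genes tested. This was *Prkcd*, the delta isoform, at 27.93, 25.12, 25.87 and 27.44 CPM in the control and 17.45, 18.47, 17.87 and 12.8 CPM in the mutant (log2 fold change -0.67, SE 0.12, edgeR adjusted p = 0.0260). Like *Ppp1r14c*, it was lower in 4 of 4 mutant libraries than in any control, as were 4.01% of all genes tested. In 6 of the 8 fits that left out a library it was no longer past the threshold. The group had a median log2 fold change of -0.029. *Prkcb*, the beta isoform (-0.27, edgeR adjusted p = 0.276), and *Pak1*, a p21-activated kinase (0.15, edgeR adjusted p = 0.42), did not pass the test.

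Of 26 genes of CDK5, CK1 and CK2, which phosphorylate DARPP-32 at other sites, and of calcineurin and PP2A, which dephosphorylate it, 25 were tested. EdgeR, DESeq2 and limma-voom each called 0 of them, and 1 was lower and 2 were higher at an unadjusted p under 0.05, again beside 7.05% and 6.59%, with a median log2 fold change of -0.017. Every mutant library lay above all controls for 1 of the 25, *Csnk2a1*, a catalytic subunit of CK2 (log2 fold change 0.21, edgeR adjusted p = 0.218). They lay below all controls for 1, *Ppp3cc* of calcineurin (-0.16, 0.453), beside 3.99% of all genes tested above and 4.01% below. *Cdk5r1*, the p35 activator of CDK5, had a log2 fold change of 0.26 (edgeR adjusted p = 0.287), and *Ppp2r5b*, a regulatory subunit of PP2A, had -0.16 (edgeR adjusted p = 0.348). Without dcKO_Nex-Cre replicate 4, *Csnk2a1*, *Cdk5r1* and *Csnk1d* were called higher, beside 3.98% of all genes.

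**Figure D5:**
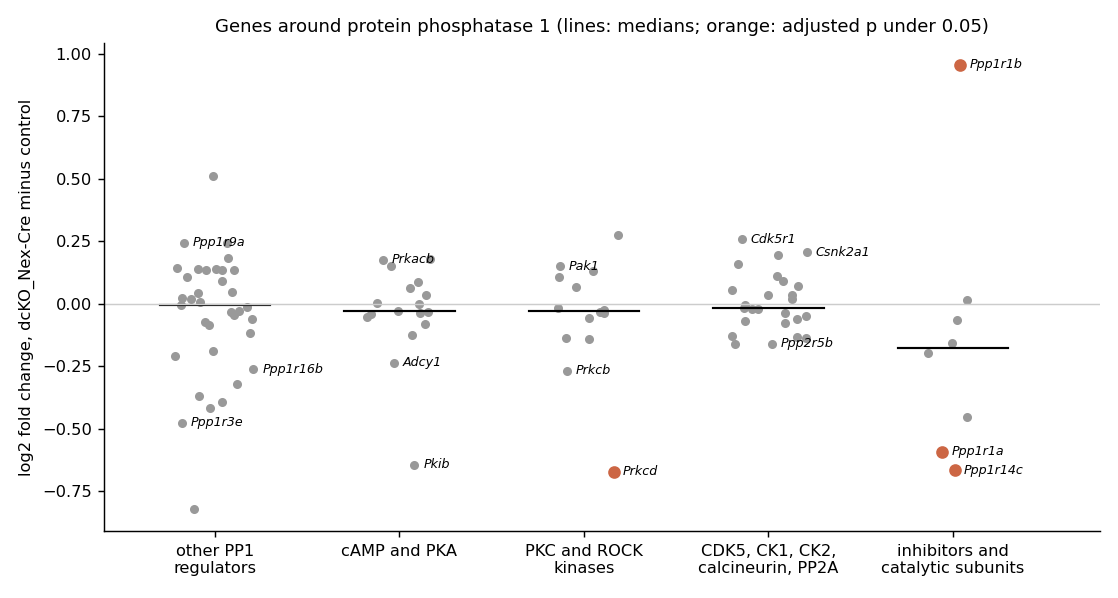
Log2 fold change, dcKO_Nex-Cre minus control, from edgeR (vertical axis) of each tested gene in 4 lists of genes around PP1 and in the inhibitors and catalytic subunits, with lines at the medians and genes with an adjusted p under 0.05 as larger orange points. Outside the inhibitors, *Prkcd* at -0.67 is the only gene called, and the medians of the 4 lists run from -0.029 to -0.0042. The inhibitors and catalytic subunits were chosen from this contrast.

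Cell type markers were set beside the inhibitor genes. The summed CPM of 14 markers of cortical projection neurons, the cells in which Nex-Cre acts, was 1901 to 2174 in the control and 1648 to 1893 in the mutant. Of the 14, 2 were called lower by edgeR, *Neurod6* and *Emx1*, beside 0.51% of all genes tested. The sum was lower in every mutant library, as were *Ppp1r14c* and *Ppp1r1a*. Without *Neurod6* the other 13 markers summed to 1316 to 1423 CPM in the control and 1211 to 1481 CPM in the mutant, which overlap. Of these 13, 8 were lower and 5 higher. All mutant libraries lay below all controls for *Fezf2* and *Emx1* and above them for *Cux1*, beside 4.01% and 3.99% of all genes tested. Mutant replicate 2, with the highest striatal marker sum, had the highest value of 3 of the 14 markers. Among these, *Bcl11b* was at 250.5 CPM and *Foxp2* at 73.66 CPM, beside at most 137.6 and 34.52 CPM in the other mutant libraries. The part of striatal RNA in these sums, and that of cortical projection neurons in the levels of the inhibitor genes, was not tested. The sums of 9 interneuron markers were 798 to 937 and 701 to 843 CPM. Of the 9, 7 were lower and 2 higher, and 0 were called by edgeR. At an unadjusted p under 0.05, 1 was lower, *Sst*, beside 7.05% of all genes tested. It was at 95.9 ± 24.9 CPM (SD, n = 4) in control and 53.6 ± 9.85 CPM (SD, n = 4) in mutant libraries, which overlap (log2 fold change -0.84, edgeR adjusted p = 0.0645). The sums of 8 radial glia and astrocyte markers were 2401 to 2832 and 1967 to 2485 CPM. The largest of these 8 was *Fabp7*, at 1584 ± 114 CPM (SD, n = 4) in control and 1123 ± 206 CPM (SD, n = 4) in mutant libraries. Of the 8, 5 were lower and 3 higher, and 0 were called by edgeR. The sums of 13 oligodendrocyte lineage markers were 237 to 320 and 312 to 387 CPM, with 1 of them, *Cspg4*, called higher, beside 0.375% of all genes tested. The 5 choroid plexus markers summed to between 20.96 and 1323 CPM in the control and between 3.93 and 552 CPM in the mutant, with 0 of 3 tested called by edgeR and 0 at an unadjusted p under 0.05.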

How the data were processed

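Libraries of total RNA from whole P1 cortex were made with an Illumina TruSeq kit, and the authors deposited the unnormalized count of each Ensembl gene, made on mm10 per the labels. The aligner, the counting program and the strand setting are not given in the sources used here. Of 48709 genes, 48349 were matched to GENCODE M21 on GRCm38 by identifier, and 0 rows named no gene. In R 4.3.3, edgeR 4.0.16 was used with filterByExpr, TMM scaling and the robust quasi-likelihood F test, two-sided, on 4 control and 4 dcKO_Nex-Cre libraries, with no covariate. The adjustment was that of Benjamini and Hochberg over 16287 genes, with a threshold of 0.05. The SE was derived from the log2 fold change and its F value. FPKM values are CPM per kilobase of exon. For shared sequence, every 50-base stretch of a gene's transcripts was looked up, in either orientation, in those of other genes. The alternatives were DESeq2 size factors, DESeq2 1.42.0, limma 3.58.1 (voom), no filter, at least 10 counts in every library, the replicate number as a block, lane tag 2 only, each library left out, and the longest transcript as length. The fit was tested on simulated data. Python 3.11.15, pandas 2.3.3, matplotlib 3.10.9 and Biopython 1.88 were used for tables, figures and sequence comparisons.

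The 10 genes and all lists were chosen with earlier results of these data known. Named besides them were *Smarcc1*, *Smarcc2* and *Neurod6*, from each list up to 6 genes with an adjusted p under 0.05, or the 3 of smallest p where fewer than 3 passed, from the marker lists at most 6 each, and the 3 genes most like each called inhibitor gene. Genes named beside a count of 5 or fewer outside this rule were chosen after their values were seen. Some items are not reported here. No libraries of a group were copies, the lowest chi-square per degree of freedom between them being 3.52.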

Additional observations from a re-analysis of the deposited data

Results flagged for a closer look

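In 48 groups of 4 values, 1 library was looked for that stood apart from the other 3 (Dixon's test at the 95% level). Of these groups 6 had one, and chance gives 1 in 20, or 2.4. *Ppp1r1b* was at 88.34 CPM in dcKO_Nex-Cre replicate 2, beside 46.05 to 52.09 CPM in the other mutant libraries. *Ppp1cb* was at 595 CPM in dcKO_Nex-Cre replicate 4, beside 444.4 to 455.1 CPM. *Ppp1r9a* was at 135 CPM in the same library, beside 180.8 to 182 CPM. *Ppp1r1c* was at 0.02899 CPM in dcKO_Nex-Cre replicate 1, where it had 1 count, beside 0 in the others. *Adcy1* was at 462.6 CPM in control replicate 2, beside 390 to 395.6 CPM in the other control libraries. *Ppp2r5b* was at 126.2 CPM in control replicate 2, beside 138.5 to 140.4 CPM.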

How the results depend on the processing

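The 83 genes called lower and 61 called higher became 279 and 215 with DESeq2, 150 and 109 without a filter, and 33 and 21 with the replicate number as a block, while lane tag 2 alone gave 140 higher. Same-numbered libraries had correlations of -0.138 to 0.135, within the -0.292 to 0.371 of the other pairs. No pairing by number was thus seen, but with 4 libraries a group this check cannot decide whether there is one. *Ppp1r1b* was not called with limma-voom (log2 fold change 0.91, adjusted p = 0.0547), without a filter (0.97, 0.133) or with the replicate block (0.90, edgeR adjusted p = 0.0539), so that the count of genes called higher among the 10 was 0 there. *Ppp1r14c* and *Ppp1r1a* were called under all 7 alternatives that kept every library or lane tag 2. DESeq2 called 1 PP1 regulator lower in place of 0, and the replicate block called 0 PKC and ROCK kinases in place of 1. *Smarcc1* was at -0.54 with the replicate block (edgeR adjusted p = 0.0578) and -0.46 within lane tag 2 (edgeR adjusted p = 0.0752). With the longest transcript the control level was 15.2 FPKM for *Ppp1r1b*, 0.811 FPKM for *Ppp1r14a*, 58.5 FPKM for *Ppp1r14b*, 199 FPKM for *Ppp1ca*, 93.3 FPKM for *Ppp1cb* and 5.67 FPKM for *Ppp1cc*.

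With 1 library left out at a time, 9 to 619 genes were called lower and 9 to 659 higher. The highest counts came without dcKO_Nex-Cre replicate 4, and the other 7 fits gave 9 to 54 lower and 9 to 33 higher. Of the 10 genes, 0 to 3 were called lower and 0 to 1 higher. *Ppp1r14c* was past the threshold in 5 of the 8 fits, *Ppp1r1a* in 3 and *Ppp1r1b* in 2, those without dcKO_Nex-Cre replicate 2 or 4. Called lower were 0 to 2 PP1 regulators, 0 to 1 genes of cyclic AMP and PKA and 0 to 1 PKC and ROCK kinases, and called higher were 0 to 2 PP1 regulators and 0 to 3 genes of the CDK5 list. *Smarcc1* ranged from -0.63 to -0.47 and *Smarcc2* from -0.87 to -0.77. Among the 10 genes, *Smarcc1* and *Smarcc2*, the direction changed under these alternatives for *Ppp1r14b* only, whose log2 fold change was near 0 and not called. The striatal markers also changed direction, with a median log2 fold change of 0.20 with all libraries and -0.42 without dcKO_Nex-Cre replicate 2. The causes of these changes were not tested. With 10 to 20 counts per library for *Ppp1r14a* and 0 to 4 for *Ppp1r1c*, depth limits what can be said of these genes.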
